A study of Homo sapiens with 6 samples.

Results

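The genes described here encode the intermediate filaments of a human osteosarcoma cell line, the lamins of its nucleus, and the linker that ties filaments to the rest of the cell. They are 10 genes taken by symbol, each found as 1 Ensembl gene ID among the 62703 IDs of the deposited table: VIM, NES, SYNM, KRT7, KRT8, KRT18, PLEC, LMNA, LMNB1 and LMNB2. The cells were MNNG/HOS Cl #5, an established line labelled as wild type. They were grown for 7 days either within demineralised bone matrix, a scaffold of bone from which the mineral has been removed (3D, 3 libraries), or on a flat surface (2D, 3 libraries). Both groups shared the same medium, DMEM with L-glutamine, fetal bovine serum and penicillin-streptomycin. All 6 libraries came from 1 line, and nothing in the labels says that the 3 libraries of a group came from separate cultures, so the p-values measure only the spread between these libraries.

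Intermediate filaments are rope-like polymers that give a cell its resistance to stretch. Vimentin is the filament protein of mesenchymal cells, nestin and synemin join vimentin as copolymers, and keratins form obligate pairs of a type I and a type II chain that are typical of epithelia. Plectin is a very large plakin that links these filaments to actin, microtubules, adhesion sites and the nuclear surface. Lamins form the meshwork under the inner nuclear membrane: LMNA encodes the A-type lamins A and C by alternative splicing, and LMNB1 and LMNB2 encode the B-type lamins, which stay attached to the membrane by a lipid group.

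In 3D culture vimentin RNA fell while the RNAs of its copolymer partners, of the keratin pair, of plectin and of both B-type lamins rose. FPKM, fragments per kilobase of gene relative to library size, was at least 1 in at least 3 libraries for 9 of the 10 genes, and these were tested with limma on log2(FPKM + 1). At a Benjamini-Hochberg adjusted p under 0.05 over all tested genes, 7 of the 9 were higher in 3D, 1 was lower (VIM) and 1 did not pass (LMNA). Of all 12843 genes tested, 33.3% were called higher and 18.1% lower in 3D. With the libraries rescaled by median ratios these shares were 24.5% higher and 24.5% lower (3148 genes each, against 4272 and 2328), and the median change of all tested genes moved from 0.144 to 0.007 on the log2 scale. The calls of the 7 genes that rose and of VIM were the same under that scaling. Of the 10 genes, 8 had all 3D libraries above all 2D libraries and 2 had them all below, where 39.0% and 21.9% of the tested genes did. In bulk RNA, fewer cells of a type and less RNA per cell cannot be told apart.

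**Figure D1:**
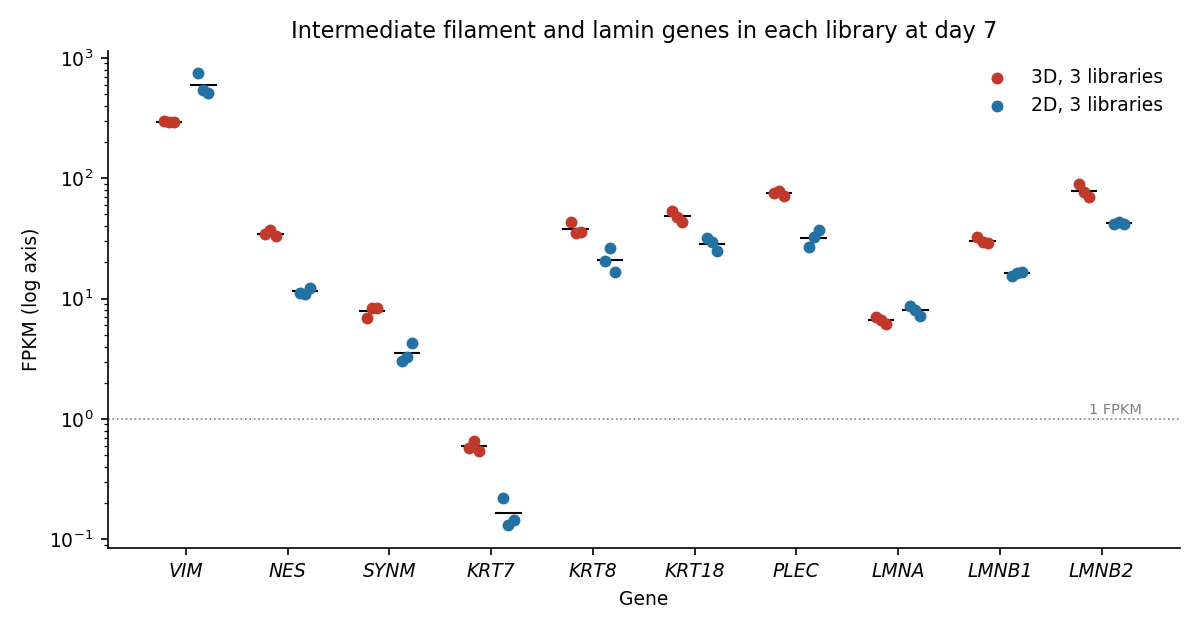
FPKM of the 10 genes on a log axis, with 1 point for each of the 3 libraries of 3D (red) and of 2D (blue) culture at day 7; black bars are group means and the dotted line marks 1 FPKM. VIM lies at 291 to 297 FPKM in 3D and 514 to 744 in 2D, LMNA at 6.11 to 7.03 and 7.16 to 8.72, and the points of the other genes are higher in 3D without overlap.

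The libraries held 13332512 to 16361254 reads, as worked out from the steps of the FPKM values. Pearson's r over the tested genes was 0.968 to 0.981 within a group and 0.886 to 0.92 between a 3D and a 2D library. Of the markers checked for other cells, PTPRC and CD3E (leukocytes) and CDH5 and PECAM1 (endothelium) stayed under 0.5 FPKM in every library. The leukocyte list summed to 3.08 to 5.51 FPKM in 3D and 17.0 to 23.3 in 2D, most of it CD68, a lysosomal protein, at 19.1 ± 2.73 FPKM in 2D and 3.42 ± 0.93 in 3D (SD, n = 3 libraries each), which was called lower (log2 change -2.20, adjusted p = 0.000313). CD14, the other tested gene of that list, was at 0.495 to 1.08 FPKM in 3D and 0.187 to 1.05 in 2D and did not pass (adjusted p = 0.618). The endothelial list summed to 0.16 to 0.309 FPKM in 3D and 0.149 to 0.244 in 2D, and the adipocyte list to 0.926 to 1.44 and 0.467 to 0.719, with ADIPOQ and LEP at 0. Most of the adipocyte sum was FABP4, at 0.926 to 1.4 FPKM in 3D and 0.42 to 0.64 in 2D. PLIN1 went the other way, at 0 to 0.0347 in 3D and 0.0466 to 0.0894 in 2D, and neither gene was tested. The osteoblast lineage list summed to 89.4 to 113 FPKM in 3D and 58.9 to 71.5 in 2D. Of its 9 genes, COL1A1 rose (log2 change 2.27, SE 0.16), SPARC did not pass, and the other 7 were under the filter. Of these, SP7, ALPL and IBSP were under 0.5 FPKM throughout, and BGLAP was at 0.0848 to 0.312 FPKM in 3D and 0.438 to 0.64 in 2D. RUNX2 was at 0.948 to 3.69 in 3D and 0.477 to 0.953 in 2D, COL1A2 at 0.0627 to 2.11 and 0.149 to 0.309, and SPP1 at 0.483 to 2.07 and 0.205 to 0.381. The part of these marker levels in the results below was not tested.

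VIM (ENSG00000026025, GRCh38 chromosome 10, 17228259 to 17237593, plus strand) was the most abundant of the 10 in every library. In 3D culture, libraries 1, 2 and 3 gave 297, 296 and 291 FPKM, and in 2D culture they gave 744, 536 and 514; values of other genes follow the same order. The 3D libraries were nearly identical, the 2D libraries were spread, with replicate 1 far above the others, and the groups did not overlap. The means were 294 ± 2.87 and 598 ± 127 FPKM (SD, n = 3 each), a level 2.03-fold lower in 3D, with a log2 change of -1.0 (SE 0.15, adjusted p = 0.00191). Without 2D replicate 1, the log2 change was -0.83. VIM took 0.279 to 0.284% of all reads in 3D and 0.493 to 0.713% in 2D.

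The antisense gene VIM-AS1, which overlaps VIM on the minus strand, moved the same way. Its FPKM was 11.1, 13.4 and 12.6 in 3D and 17.8, 21.7 and 19.7 in 2D, without overlap (log2 change -0.63, SE 0.11, adjusted p = 0.00337). Whether the counting used strand is not given in the sources used here, so reads of VIM and VIM-AS1 from their shared stretch may not be separable. The highest FPKM of VIM-AS1 was in 2D replicate 2 and that of VIM in 2D replicate 1.

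The 3 named genes whose log2 levels followed VIM most closely over the 6 libraries were TMSB4X, which encodes the actin monomer-binding thymosin beta 4 (Pearson's r = 0.999), TAGLN3, a calponin family member (r = 0.999), and the processed pseudogene WBP1P1 (r = 0.997). These are descriptions over 6 libraries that fall into 2 groups, and the libraries share their totals. TMSB4X was at 121, 123 and 120.3 FPKM in 3D and 231, 186 and 177 in 2D, so it too was highest in 2D replicate 1.

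NES (ENSG00000132688, chromosome 1, 156668763 to 156677397, minus strand) encodes nestin, a long filament protein of progenitor cells that needs a partner such as vimentin to polymerise. Its FPKM was 34.2, 36.9 and 32.9 in 3D and 11.1, 11.0 and 12.3 in 2D. Both groups were tight and far apart. NES rose 3.02-fold by the means (34.6 ± 2.03 against 11.5 ± 0.729 FPKM, SD, n = 3 each), with a log2 change of 1.51 (SE 0.09, adjusted p = 0.00021), the largest change among the 9 tested genes. GENCODE 29 places no other gene across its span.

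SYNM (ENSG00000182253, chromosome 15, 99098217 to 99135593, plus strand) encodes synemin, which copolymerises with vimentin and desmin. It stood at 6.90, 8.30 and 8.32 FPKM in 3D and at 3.03, 3.28 and 4.25 in 2D. The lowest 3D library was replicate 1 and the highest 2D library was replicate 3, with a clear gap between them. SYNM rose 2.22-fold by the means (log2 change 0.97, SE 0.13, adjusted p = 0.00121).

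The opposite directions altered the make-up of the filament RNA within each library. VIM held 68.2, 69.8 and 70.6% of the summed FPKM of VIM, NES, SYNM, KRT7, KRT8 and KRT18 in 3D, and 91.8, 88.4 and 89.9% in 2D. The groups did not overlap. The share was 20.5 percentage points apart (69.5 ± 1.25 against 90.0 ± 1.68%, SD, n = 3 each), with an exact two-sided permutation p of 0.1, the smallest that 3 libraries against 3 can give. It is a share of FPKM values, so its level rests on the gene lengths behind them. With levels per GENCODE 29 exon length the difference was -19.6 percentage points.

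**Figure D2:**
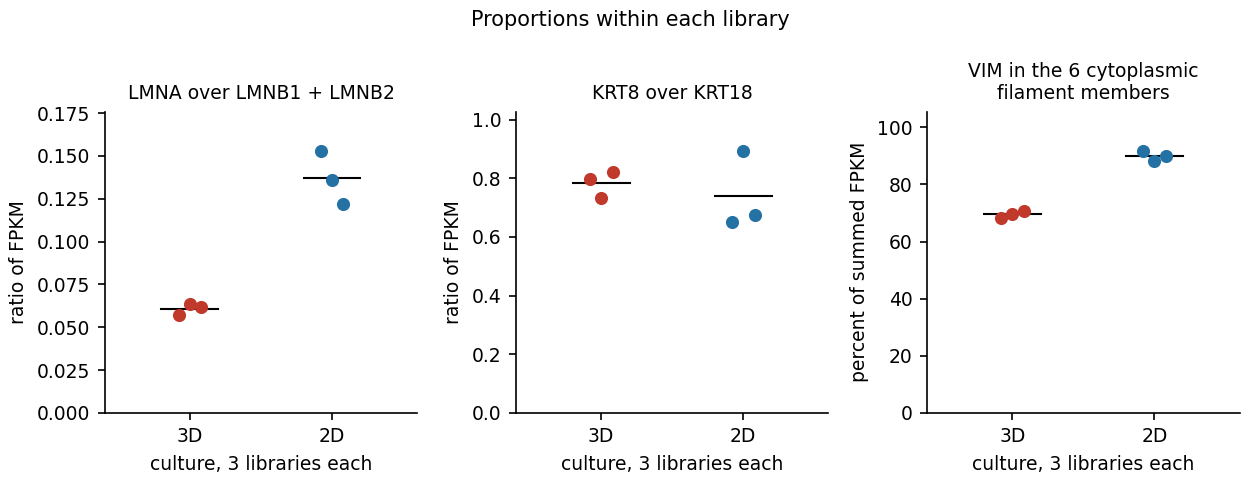
Proportions within each library, 1 point per library and black bars at the means, for 3D (red) and 2D (blue): LMNA over the sum of LMNB1 and LMNB2 and KRT8 over KRT18 as ratios of FPKM, and VIM as a percent of the summed FPKM of 6 cytoplasmic filament genes. LMNA over the B-type lamins is 0.0572 to 0.0633 in 3D and 0.122 to 0.153 in 2D, the keratin ratio overlaps between the groups, and the share of VIM is 68.2 to 70.6% and 88.4 to 91.8%.

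KRT8 and KRT18, a keratin pair of simple epithelia, rose together. KRT8 (ENSG00000170421, type II, chromosome 12, 52897187 to 52949954, minus strand) was at 43.0, 34.8 and 35.8 FPKM in 3D and 20.6, 26.2 and 16.6 in 2D. KRT18 (ENSG00000111057, type I, chromosome 12, 52948871 to 52952901, plus strand), its obligate partner, was at 53.8, 47.4 and 43.5 in 3D and 31.6, 29.4 and 24.7 in 2D. For both genes the groups did not overlap, although 2D replicate 2 of KRT8 came nearer to the 3D range than the other 2D libraries.

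KRT8 rose 1.79-fold by the means (log2 change 0.83, SE 0.17, adjusted p = 0.00637) and KRT18 rose 1.69-fold (log2 change 0.74, SE 0.13, adjusted p = 0.0031). The ratio of KRT8 to KRT18 was 0.799, 0.734 and 0.823 in 3D and 0.651, 0.894 and 0.675 in 2D. These ranges overlapped, and the log2 ratio differed by 0.0997 (exact two-sided permutation p = 0.5), so a difference between the partners was not detectable with 3 libraries a group. The spans of the 2 genes overlap on opposite strands at their edges, so some reads may be shared.

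KRT8 has many processed pseudogenes, intron-free copies of its mRNA inserted elsewhere in the genome, and reads from near-identical stretches can be assigned to either. Over their full alignment the transcripts of KRT8 and KRT8P10 (GENCODE 29) were identical at 1328 of 1447 bases (91.8%), with a longest identical run of 101 bases. KRT8P10 was at 5.16, 3.66 and 3.32 FPKM in 3D and 1.37, 1.67 and 1.35 in 2D, which is the direction of KRT8. Other tested copies were closer still to KRT8: KRT8P33 was 95.9% identical and KRT8P45 95.6%.

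The table held 51 genes named as KRT8 pseudogenes, 26 of them above 0 in some library and 5 tested. All 5 were called higher, where 33.3% of all tested genes were. They share near-identical stretches with KRT8, so the 5 are not separate observations. KRT8P45 reached the filter only through 3D (2.79, 2.15 and 2.02 FPKM, against 0.782, 0.858 and 0.871 in 2D), so the filter favoured its call. The most abundant was KRT8P3, 97.1% identical to KRT8, at 34.9, 28.1 and 22.4 FPKM in 3D and 12.7, 14.6 and 13.6 in 2D. The summed FPKM of the KRT8 pseudogenes was 51.0, 42.6 and 36.3 in 3D and 20.5, 22.9 and 20.7 in 2D, 2.03-fold higher by the means. Their reads came to 8.84 to 12.5% of those assigned to KRT8, so the FPKM of KRT8 may miss some of its reads. Of 67 KRT18 pseudogenes, 24 were above 0 and none reached the filter, with reads of 1.66 to 2.32% of those of KRT18. With summed pseudogene FPKM added to each parent, the log2 ratio of KRT8 to KRT18 differed by 0.179 (exact permutation p = 0.3). This adds values per length, not reads. The length was 1449 bases for KRT8P3 and 15080 for KRT8, so the sum weighs pseudogene reads more heavily than those of KRT8.

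KRT7 (ENSG00000135480, type II, chromosome 12, 52232520 to 52252186, plus strand), a keratin of glands and ducts, was near the limit of detection. It had 51, 61 and 60 reads in 3D and 21, 12 and 14 in 2D, which is 0.569, 0.660 and 0.545 FPKM against 0.222, 0.131 and 0.146. The groups did not overlap, but no library reached 1 FPKM, so KRT7 was not among the genes tested. In the fit with no filter on low values, in which 13.4% of 33243 genes were called higher, its log2 change was 0.45 (SE 0.07, adjusted p = 0.00921). KRT7 shares part of its span with KRT86 on the same strand.

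Most other keratins were listed at 0. Of 22 further keratin genes, 13 were listed at 0 in every library, among them KRT5, KRT14 and KRT20, the keratins of basal and intestinal epithelia, and 5 were tested. The hair keratins KRT81 and KRT86 rose, KRT10 and KRT15 fell, and KRT80 did not pass. Among all tested genes, 33.3% rose and 18.1% fell. KRT81 was at 24.4, 20.5 and 17.4 FPKM in 3D and 5.90, 5.34 and 4.79 in 2D (log2 change 1.77, SE 0.14, adjusted p = 0.000304). KRT86 was at 17.2, 14.9 and 9.19 in 3D and 3.09, 2.56 and 1.96 in 2D (log2 change 2.03, SE 0.23, adjusted p = 0.000709).

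KRT81 and KRT86 lie on opposite strands with overlapping spans, and their coding sequences were identical at 1326 of 1393 aligned bases (95.2%), with an unbroken identical run of 605 bases. How the reads were divided between them is therefore uncertain. KRT10, a keratin of suprabasal skin, was at 3.89, 3.65 and 3.00 FPKM in 3D and 7.80, 8.89 and 5.74 in 2D (log2 change -0.90, SE 0.16, adjusted p = 0.00347). KRT15 stayed under 1.5 FPKM throughout (log2 change -0.57, SE 0.13, adjusted p = 0.00971). It reached the filter only through 2D (1.23, 1.06 and 1.4 FPKM, against 0.291, 0.529 and 0.717 in 3D), so the filter favoured its call. In the limma fit with no filter on low values its adjusted p was 0.0309. KRT80 was at 6.71 FPKM in 3D replicate 1 and at 12.1 and 12.5 in the other 3D libraries, against 6.60 to 7.33 in 2D. Without 3D replicate 1 its log2 change was 0.73 (adjusted p = 0.00231), against 0.47 with all libraries (adjusted p = 0.107).

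Of the keratin genes examined, 14 lie within 0.784 Mb of chromosome 12, between 52168996 and 52952901. Of these, 5 were tested and 4 rose (KRT8, KRT18, KRT81 and KRT86), with the uncertainty in dividing reads that is given for each pair. KRT8 and KRT18 overlap in span, as do KRT81 and KRT86, so the 4 are not separate observations of this stretch. Among all tested genes, 33.3% were called higher.

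The epithelial adhesion genes CDH1 and EPCAM stayed low beside KRT8 and KRT18. Of the desmosomal linkers, JUP was at 11.7 to 17.2 FPKM in 3D and 14.0 to 14.7 in 2D. DSG2 was at 5.69 to 7.91 FPKM in 3D and 4.35 to 6.37 in 2D, and neither passed. CDH1, the epithelial cadherin, was at 0.00746 FPKM or less in every library, and EPCAM, an epithelial adhesion protein, was at 1.39 to 1.67 FPKM in 3D and 1.31 to 1.65 in 2D (log2 change 0.02, adjusted p = 0.889). The epithelial marker list summed to 1.39 to 1.77 FPKM in 3D and 1.47 to 1.70 in 2D. Of 15 regulators and markers of the epithelial and mesenchymal states, 10 were tested, 2 rose and 2 fell. Among all tested genes, 33.3% rose and 18.1% fell. SNAI2, a repressor of epithelial genes, rose from 0.884 ± 0.0845 to 2.76 ± 0.915 FPKM (log2 change 0.97, SE 0.17, adjusted p = 0.00329). SNAI2 reached the filter only through 3D (3.77, 2.53 and 1.98 FPKM, against 0.979, 0.817 and 0.857 in 2D), so the filter favoured its call. In the limma fit with no filter on low values its adjusted p was 0.0166. FOXC2, a mesenchymal forkhead factor, fell from 11.8 ± 1.30 to 4.97 ± 0.693 FPKM (log2 change -1.10, SE 0.13, adjusted p = 0.000722). SNAI1 rose by less (log2 change 0.37, SE 0.11, adjusted p = 0.0234), and ZEB1, named because it completes the 4 calls of this list, fell (log2 change -0.32, SE 0.10, adjusted p = 0.0286). The call of SNAI1 was lost under median-ratio scaling (adjusted p = 0.111) and on leaving out replicate 1 or replicate 2 of either group (adjusted p = 0.0564 to 0.0816). It was also lost under upper-quartile scaling (adjusted p = 0.0993) and with no filter on low values (adjusted p = 0.0552). The call of ZEB1 was lost without any single library other than 2D replicate 1 (adjusted p = 0.0517 to 0.101) and with no filter (adjusted p = 0.0545). The median log2 change of the 10 was 0.06, against 0.144 for all tested genes.

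Among the other cytoplasmic filament genes, INA, which encodes the neuronal filament protein alpha-internexin, rose. It was at 11.1, 10.9 and 10.5 FPKM in 3D and 4.65, 4.54 and 4.82 in 2D (log2 change 1.06, SE 0.08, adjusted p = 0.000296). The lens filament gene BFSP1 was the only other of the 10 on the list to be tested and did not pass (log2 change 0.36, SE 0.15, adjusted p = 0.0849), but did without 3D replicate 3 (adjusted p = 0.0123). DES, GFAP, PRPH and the 3 neurofilament genes were under 0.5 FPKM in every library.

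PLEC (ENSG00000178209, chromosome 8, 143915147 to 143976734, minus strand) had the second largest increase of the 9 tested genes. Plectin RNA was at 74.9, 78.3 and 71.3 FPKM in 3D and 27.0, 32.4 and 37.0 in 2D, with all 3D libraries well above all 2D libraries. It rose 2.33-fold by the means (74.8 ± 3.53 against 32.2 ± 4.99 FPKM, SD, n = 3 each), with a log2 change of 1.20 (SE 0.13, adjusted p = 0.000572). PLEC took 0.169 to 0.186% of all reads in 3D and 0.0640 to 0.0876% in 2D.

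None of the other plakins and desmosomal linkers that were tested passed. Of 14 genes, 8 were tested and 0 were called by limma, 0 at an unadjusted p under 0.05 and 0 by limma-voom. Among all tested genes, 33.3% were called higher and 18.1% lower. The median log2 change of the 8 was 0.12, against 0.144 for all tested genes. Of the untested genes, DSC3 was at 0.265 to 0.393 FPKM in 3D and 0.0285 to 0.0452 in 2D. PPL went the other way, at 0.247 to 0.334 in 3D and 0.364 to 0.568 in 2D, and the other untested genes overlapped between the groups. DST and MACF1, the giant plakins that join filaments or actin to microtubules, were at 5.45, 8.12 and 9.02 FPKM and at 4.86, 8.16 and 8.98 in 3D, against 4.64 to 6.39 and 4.44 to 6.38 in 2D. In both, 3D replicate 1 was the lowest 3D library and the groups overlapped. Their log2 changes were 0.43 (adjusted p = 0.0949) and 0.41 (adjusted p = 0.161). Without 3D replicate 1 they were 0.62 (adjusted p = 0.0162) and 0.64 (adjusted p = 0.0168), and without 3D replicate 3 they were 0.31 (adjusted p = 0.253) and 0.26 (adjusted p = 0.395). DSP, the desmosomal plakin that anchors keratins, was at 0.452 to 1.35 FPKM in 3D and 1.43 to 2.07 in 2D (log2 change -0.45, SE 0.20, adjusted p = 0.0937). Its log2 change was -0.24 without 3D replicate 1 (adjusted p = 0.19), and it passed as lower under median-ratio scaling (adjusted p = 0.0499). PKP4 had the next smallest adjusted p, 0.111, with a log2 change of 0.19.

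Of 8 filament-binding partners, 6 were tested and 2 rose, where 33.3% of all tested genes were called higher. TCHP, trichoplein, a keratin-binding protein of desmosomes and centrosomes, rose 1.64-fold by the means (log2 change 0.51, SE 0.11, adjusted p = 0.00755). FLNA, the actin crosslinker filamin A, was at 196, 179 and 181 FPKM in 3D and 107, 148 and 138 in 2D (log2 change 0.51, SE 0.14, adjusted p = 0.0182). Its call was lost under median-ratio scaling (adjusted p = 0.0945), under upper-quartile scaling (adjusted p = 0.0757) and with no filter on low values (adjusted p = 0.0519).

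In the nucleus the B-type lamins rose and LMNA did not pass the test. LMNB1 (ENSG00000113368, chromosome 5, 126776623 to 126837020, plus strand) was at 32.8, 29.3 and 28.8 FPKM in 3D and 15.5, 16.3 and 16.8 in 2D. LMNB2 (ENSG00000176619, chromosome 19, 2427638 to 2456996, minus strand) was at 90.0, 76.3 and 69.6 FPKM in 3D and 41.4, 43.2 and 42.0 in 2D. For both, 3D replicate 1 was the highest library, the 2D libraries were close to each other, and the groups did not overlap.

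LMNB1 rose 1.87-fold by the means (log2 change 0.86, SE 0.09, adjusted p = 0.000581) and LMNB2 rose 1.86-fold (log2 change 0.87, SE 0.11, adjusted p = 0.00106). LMNA (ENSG00000160789, chromosome 1, 156082573 to 156140089, plus strand) was at 7.03, 6.69 and 6.11 FPKM in 3D and 8.72, 8.11 and 7.16 in 2D. Every 3D library lay below every 2D library, but the gap between the nearest pair was small (log2 change -0.24, SE 0.10, adjusted p = 0.0886). LMNA passed as lower under median-ratio scaling (log2 change -0.40, adjusted p = 0.0187) and without 2D replicate 3 (log2 change -0.31, adjusted p = 0.049).

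**Figure D3:**
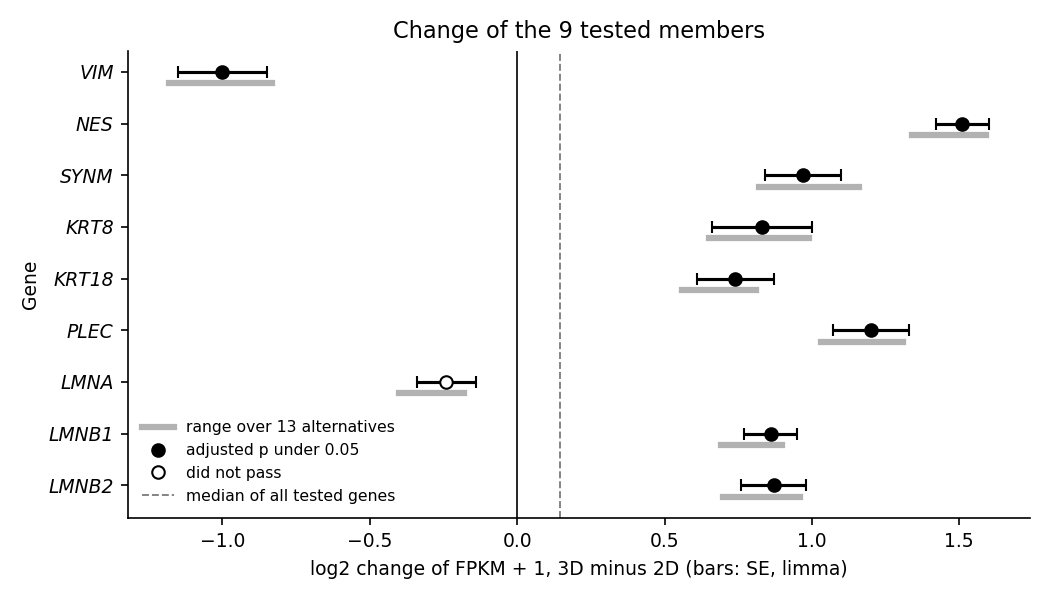
log2 change of FPKM + 1 (3D minus 2D) of the 9 tested genes with its standard error from limma; filled points passed an adjusted p of 0.05, the open point did not, grey bars span the values under 13 alternatives and the dashed line is the median of all tested genes (0.144). VIM (-1.0) and LMNA (-0.24) lie to the left of 0, and the other 7 genes lie between 0.74 and 1.51.

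The balance of the lamins was measured within each library, where no scaling between libraries enters. The ratio of LMNA to the sum of LMNB1 and LMNB2 was 0.0572, 0.0633 and 0.0620 in 3D and 0.153, 0.136 and 0.122 in 2D. All 3D libraries were below all 2D libraries, by 1.17 on the log2 scale (-4.04 ± 0.0776 against -2.87 ± 0.167, SD, n = 3 each), with an exact two-sided permutation p of 0.1, the smallest possible. Against LMNB1 alone the difference was -1.18. The level of the ratio rests on gene lengths, and its difference on those of LMNB1 and LMNB2, which weigh their sum. With levels per GENCODE 29 exon length the difference was -1.17 as well. The FPKM of LMNA was made with a length of 24259 bases, as worked out from the values. In GENCODE 29 the exons of LMNA sum to 6985. Per GENCODE 29 exon length, LMNA averaged 23.0 in 3D and 27.9 in 2D, LMNB1 65.9 and 35.2, and LMNB2 101 and 54.2.

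The lamins also differ in how their ends are processed. Lamin A and the B-type lamins end in a CaaX box, a cysteine followed by 3 residues, to which farnesyl is attached, while lamin C, the other product of LMNA, ends without it. The last 30 coding bases of the 3 lamins with a CaaX box are printed because the enzymes whose RNA is described next act on this end. Capitals mark the 4 codons of the CaaX box before the stop codon. They lie at chr1:156138755-156139106 (lamin A, joined across an intron), chr5:126836235-126836264 (lamin B1) and, on the minus strand, chr19:2430911-2430940 (lamin B2) in GENCODE 29 on GRCh38.
lamin A: cagagcccccagaacTGCAGCATCATGtaa
lamin B1: gcatccaatagaagcTGTGCAATTATGtaa
lamin B2: accacctcaagaggcTGCTACGTGATGtga

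Since the table gives 1 value for LMNA, the RNAs of lamin A and lamin C were not told apart. Of the 5 genes that process these ends, 2 rose and 1 fell, near the shares of all tested genes (33.3% higher and 18.1% lower). ZMPSTE24, the protease that cleaves the farnesylated end from prelamin A, was at 11.3, 9.85 and 8.82 FPKM in 3D and 2.17, 2.17 and 2.88 in 2D. The groups lay far apart, 4.15-fold by the means (log2 change 1.69, SE 0.13, adjusted p = 0.000293). ICMT, which methylates the farnesylated cysteine, was at 36.0, 32.4 and 31.4 in 3D and 12.6, 14.4 and 13.8 in 2D (log2 change 1.23, SE 0.10, adjusted p = 0.00031).

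Of the farnesyltransferase subunits, FNTB fell and FNTA did not pass. FNTB, the catalytic beta subunit, was at 4.39, 4.47 and 4.52 FPKM in 3D and 8.51, 5.40 and 6.04 in 2D (log2 change -0.46, SE 0.15, adjusted p = 0.0367). Its call was lost without any single library other than 2D replicate 2 (adjusted p = 0.0537 to 0.086), with a log2 change of -0.30 without 2D replicate 1. It was also lost with no filter on low values (adjusted p = 0.0982). FNTA, the alpha subunit, was at 1.91 to 2.07 in 3D and 1.72 to 1.92 in 2D (adjusted p = 0.531). RCE1, the protease that trims the CaaX end, had a log2 change of -0.02 (adjusted p = 0.888).

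Around the lamina, 14 of 16 genes of the nuclear membrane and of the LINC complex, which bridges lamina and cytoskeleton, were tested. Of these, 3 rose and 2 fell, where 33.3% and 18.1% of all tested genes did, with a median log2 change of 0.16. TMPO, which encodes the lamina-associated polypeptides 2, was at 22.7, 21.0 and 21.5 FPKM in 3D and 10.7, 11.1 and 11.2 in 2D (log2 change 0.92, SE 0.08, adjusted p = 0.000366). TOR1A, an ATPase of the nuclear envelope and endoplasmic reticulum, rose 1.88-fold by the means (log2 change 0.78, SE 0.08, adjusted p = 0.000599).

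SUN1, an inner membrane protein of the LINC complex that binds A-type lamins, was at 9.28, 12.5 and 12.6 FPKM in 3D and 21.7, 20.8 and 21.8 in 2D, so that every 3D library lay far below the 2D range (log2 change -0.86, SE 0.13, adjusted p = 0.00166). SUN2, its paralogue, fell as well (log2 change -0.59, SE 0.09, adjusted p = 0.0022). NEMP1, an inner nuclear membrane protein, rose least (log2 change 0.33, SE 0.11, adjusted p = 0.04). Its call was lost under median-ratio scaling (log2 change 0.16, adjusted p = 0.231) and without any single library other than 2D replicate 3 (adjusted p = 0.053 to 0.126). It was also lost under upper-quartile scaling (adjusted p = 0.201) and with no filter on low values (adjusted p = 0.0864). SUN2 and NEMP1 are named because they complete the 5 calls of this list. EMD, which encodes emerin, and LBR, the lamin B receptor, did not pass (adjusted p = 0.79 and 0.176).

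**Figure D4:**
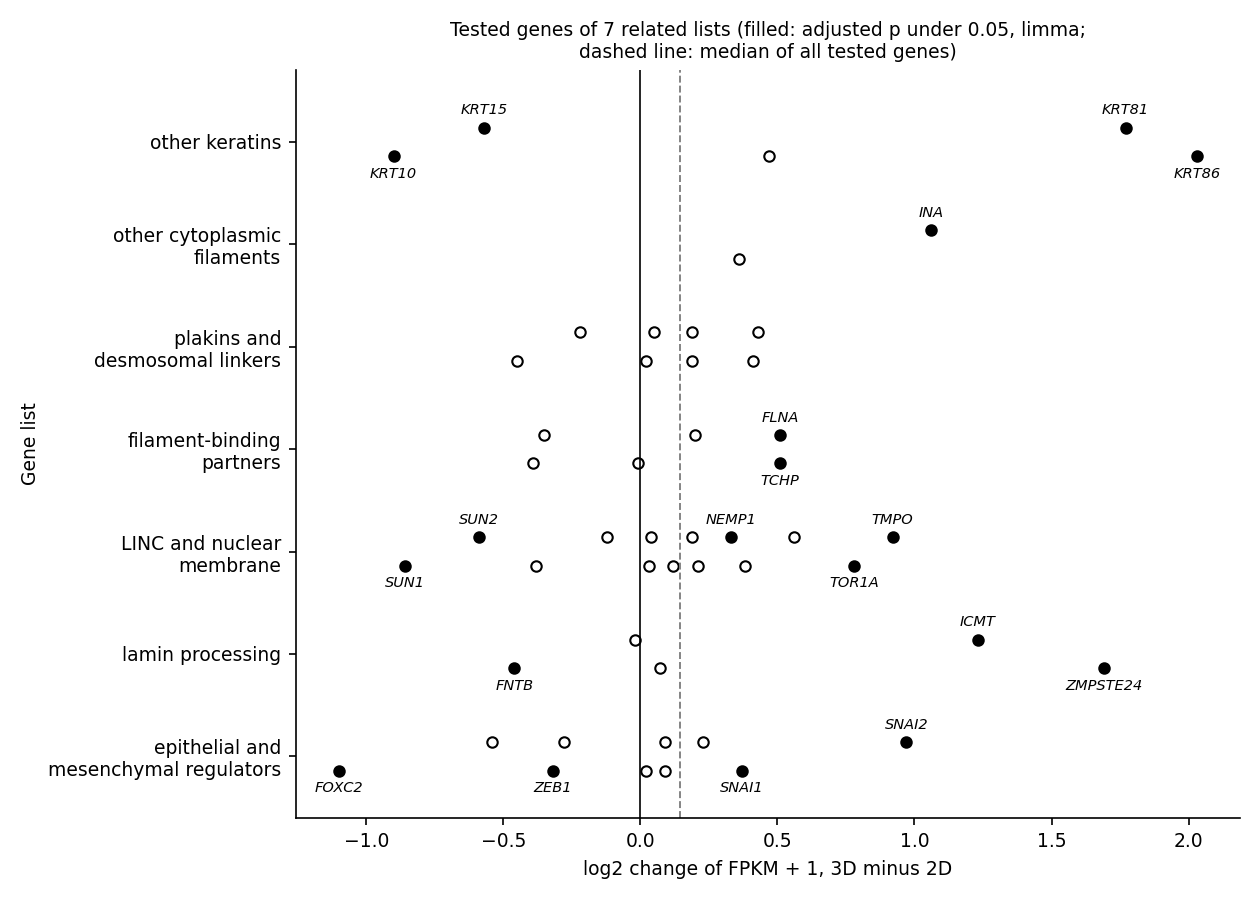
log2 change of FPKM + 1 (3D minus 2D) of the tested genes of 7 lists around the filaments and the lamina; filled points passed an adjusted p of 0.05 (limma) and carry their symbol, open points did not, and the dashed line is the median of all tested genes (0.144). Calls run from FOXC2 (-1.10) to KRT86 (2.03), and no point of the plakin list is filled.

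Levels can be compared between genes only per length, and the lengths behind the deposited values were longer than the GENCODE 29 exons for all 10 genes, from 5568 against 5558 bases for NES to 24259 against 6985 for LMNA. VIM came first and KRT7 last on both scales and in both groups. By mean FPKM the order in 3D was VIM, LMNB2, PLEC, KRT18, KRT8, NES, LMNB1, SYNM, LMNA and KRT7. Of these neighbours, LMNB2 and PLEC overlapped over the 3 libraries, as did KRT8 and NES, and SYNM and LMNA. The lowest library of KRT18 (43.5) was just above the highest of KRT8 (43.0), and the lowest of NES (32.9) just above the highest of LMNB1 (32.8).

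In 2D the order by mean FPKM was VIM, LMNB2, PLEC, KRT18, KRT8, LMNB1, NES, LMNA, SYNM and KRT7. There PLEC overlapped KRT18, KRT18 overlapped KRT8, and KRT8 overlapped LMNB1, while the other neighbours did not overlap. By these values NES and LMNB1 changed places between the groups, and so did SYNM and LMNA. Per GENCODE 29 exon length neither pair did: LMNB1 was sixth and SYNM ninth of the 10 in both groups, NES was seventh in 3D and eighth in 2D, and LMNA eighth and seventh. Among all genes of the table, ranked by mean FPKM, VIM was number 79 in 3D and 67 in 2D, and NES was number 738 and 2401.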

How the data were processed

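RNA was extracted with TRIzol, enriched for poly(A) and sequenced, per the labels' protocols, in 3 libraries of 3D and 3 of 2D culture. What the authors deposited is a single table, in FPKM, with 62703 Ensembl gene IDs. The submitters' processing notes name FastQC, fastp, HISAT2, StringTie, edgeR and the build GRCh38, without roles. Neither the annotation release, nor strandedness, nor the treatment of multi-mapping reads is stated in those sources. The lengths used bear on levels between genes, and the division of shared reads bears on both levels and changes.

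From these values, log2(FPKM + 1) of the 12843 genes with at least 1 FPKM in at least 3 libraries was fitted with limma 3.58.1 (trend and robust, statmod 1.5.0, R 4.3.3), all 6 libraries, no covariates. P-values were adjusted by Benjamini-Hochberg over these genes, threshold 0.05. A fold on this scale understates the change of low genes. Ratios within a library were compared by exact two-sided permutation tests (scipy 1.17.1). The fit was tested on simulated data.

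Whole reads were recovered by finding, for each gene, a length at which all 6 values were whole within 0.01 reads. This was found at the GENCODE 29 exon length for 11450 and at another length for 21788 of 33243 genes above 0. A read in 1 kb was worth 0.0609 to 0.0747 FPKM. Chi-square tests between libraries of a group gave 14.7 to 34.9 per degree of freedom, more than counting noise, so none was counted as the same library deposited again; whether libraries share a culture is not tested by this.

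Positions and transcripts are GENCODE 29 on GRCh38, and alignments used Biopython 1.88. Symbols came from a name table that gave one for 42300 IDs. The members, the 12 further lists and the tests were chosen with earlier results of these data known. Named genes were all members, in each list the 3 tested genes of smallest adjusted p, pseudogenes and antisense genes of members, and the 3 genes most like VIM. The alternatives were pseudocount 0.1, no filter, a minimum of 5 FPKM, median-ratio and upper-quartile scaling, limma-voom on the recovered reads, a replicate block and leaving out each library. A gene and some sequences are not reported here.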

Additional observations from a re-analysis of the deposited data

How the results depend on the processing

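Of 117 values of the 9 tested members under 13 alternatives, 114 kept their direction and side of the threshold. The other 3 were LMNA, which passed as lower under median-ratio scaling, under upper-quartile scaling (log2 change -0.38, adjusted p = 0.0194) and without 2D replicate 3, so the count of members called lower was 2 in these and 1 otherwise (1 to 2 on leaving out each library). The adjusted p of LMNA ran from 0.0187 to 0.226. With a minimum of 5 FPKM, 2134 genes were higher and 1319 lower, since fewer genes were tested. Of 512 values of single named genes, 30 lost their call, 14 gained one and no call reversed. Changes of sign without a call in either fit, as in CD14 and EPCAM, were not counted as reversals. The 30 belong to FLNA, FNTB, NEMP1, SNAI1 and ZEB1. Deviations from the group means had correlations of -0.0172 to 0.184 between same-numbered libraries and -0.172 to 0.104 between the others. With 3 libraries a group, these values cannot settle whether the numbers pair the libraries. With a replicate block, 4291 genes were higher and 2382 lower, no member's call changed, and DST (adjusted p = 0.0385) and DSP (0.0404) passed. The ratio of LMNA to the B-type lamins differed by -1.25 to -1.08 on leaving out each library. The 3 libraries a group limit every exact test to a p of 0.1 or more, and lengths and read sharing limit levels of KRT7, KRT8, KRT81 and KRT86.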
